A study of Mus musculus with 3 samples.

Results

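Transcripts of 7 tumour suppressor genes of lymphoid leukaemia were followed in tumours of the mouse spleen: Ikzf1, Runx1, Etv6, Phf6, Fbxw7, Nf1 and Cnot3. The genes were chosen by name, and every non-control probe of the array whose RefSeq transcript belongs to one of them was taken. This gave 16 probes of 56605, for 7 genes of the 22907 that could be named. Loss or mutation of each of these genes has been described in lymphoid leukaemia, in most of them in the T cell form. Such genes act as brakes at different levels: transcription factors that steer lymphocytes out of the progenitor state, a chromatin reader, a ubiquitin ligase that removes growth-promoting proteins, an inhibitor of Ras and a regulator of mRNA decay. The array reports how much of each transcript is present and cannot see mutations, protein or protein activity.

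The tumours came from the LSD1 × p53+/- genotype (2 tumours, numbered 2 and 3, here LSD1 tumour 2 and LSD1 tumour 3) and from the p53+/- genotype (1 tumour, here the p53 tumour). The mice were 10 weeks old and labelled male, all were p53+/-, and their cells received no treatment. The tissue label reads splenic tumour, while the growth protocol speaks of isolated spleen cells. The nature of the LSD1 element, its promoter and cell type, the strain, and whether the numbers name mice or lines are not given in the sources used here. Total RNA was labelled with Cy3 and read on 1 Agilent array per tumour.

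Between 51.5% and 55.6% of the non-control spots were well above background on each array, and none was saturated. The 4 leukocyte markers, including Ptprc (CD45), were above background on all 3 arrays, and so were the 10 erythroid markers. Markers of several other cell types differed between the tumours. Other lists were closer to the p53 tumour in the median. Log2 differences in LSD1 tumours 2 and 3 were -0.14 and -0.08 for 8 macrophage markers and -0.25 and 0.24 for 5 megakaryocyte markers. For 7 markers of stroma and endothelium they were -0.34 and -0.58. Single macrophage markers, named after their values were seen, lay further from the p53 tumour than their median. In LSD1 tumour 3, Timd4 and Marco were 15.4-fold and 7.43-fold lower and C1qb 2.33-fold higher. In LSD1 tumour 2, Adgre1 was 3.04-fold lower and Timd4 2.15-fold higher. Summed over 12 T cell markers, the signal was 281 in LSD1 tumour 2 and 56.9 in LSD1 tumour 3, against 114 in the p53 tumour, with 12, 11 and 12 of them above background. For 10 B cell markers the sums were 42.8 and 152, against 299.7 in the p53 tumour, with 10, 9 and 10 above background. For 8 markers of proliferating cells they were 104 and 218, against 68.6, and for 9 neutrophil markers 300.1 and 278, against 147. All 8 proliferation markers (medians 1.12 and 1.78 log2) and all 9 neutrophil markers (1.41 and 1.27) were higher in both LSD1 tumours. These sums are processed signals divided by the array's 75th percentile, the scale of all levels given here. In whole-tumour RNA, fewer cells of a type and less RNA per cell cannot be told apart.

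All 16 probes passed the filter on dim probes (above background on at least 1 array), and 15 were above background on all 3. None of the 16 passed the test between the genotypes (limma fitted on 32905 probes, adjusted p between 0.892 and 0.992, unadjusted p between 0.16 and 0.931). In the whole table limma called 0% of probes, with 1488 at an unadjusted p under 0.05 (4.52%). By size, no member probe differed 2-fold from the p53 tumour in LSD1 tumour 2 or in LSD1 tumour 3, a size that 25.7% and 30.2% of all tested probes reached. Other scalings ended this: 1 member probe in LSD1 tumour 3 passed 2-fold after quantile normalization (Ikzf1 A_52_P618569, -1.09 log2), and 1 in LSD1 tumour 2 (Nf1 A_66_P129792, -1.09) and 4 in LSD1 tumour 3 (2 of Ikzf1, 1 of Runx1 and 1 of Nf1, -1.11 to -1.26) did in the authors' deposited values. In both LSD1 tumours at once, 0 of 16 were higher by that size (background 3.63%) and 0 lower (7.31%). A difference of 1.5-fold was reached by 3 member probes in LSD1 tumour 2 and 4 in LSD1 tumour 3, where 47.4% and 52.9% of all tested probes reached it, and by 0 upwards in both (10.4% of all). The p53 tumour lay below both LSD1 tumours for 6 probes and above both for 5, against 36.6% and 32.2% of all tested probes. These shares cover all 32905 tested probes, including dim ones above background on only part of the arrays. They were not counted over the 25505 probes above background on all 3, as 15 of the 16 member probes were. Set against the p53 tumour, the member probes had a median absolute log2 difference of 0.30 for LSD1 tumour 2 and 0.40 for LSD1 tumour 3, beside 0.48 and 0.55 over the 25505 probes above background on all 3 arrays. With 1 tumour against 2 the limma standard errors of the member probes ran from 0.49 to 0.74 log2 units, so each 95% interval below spans differences of more than 2-fold in at least 1 direction.

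**Figure D1:**
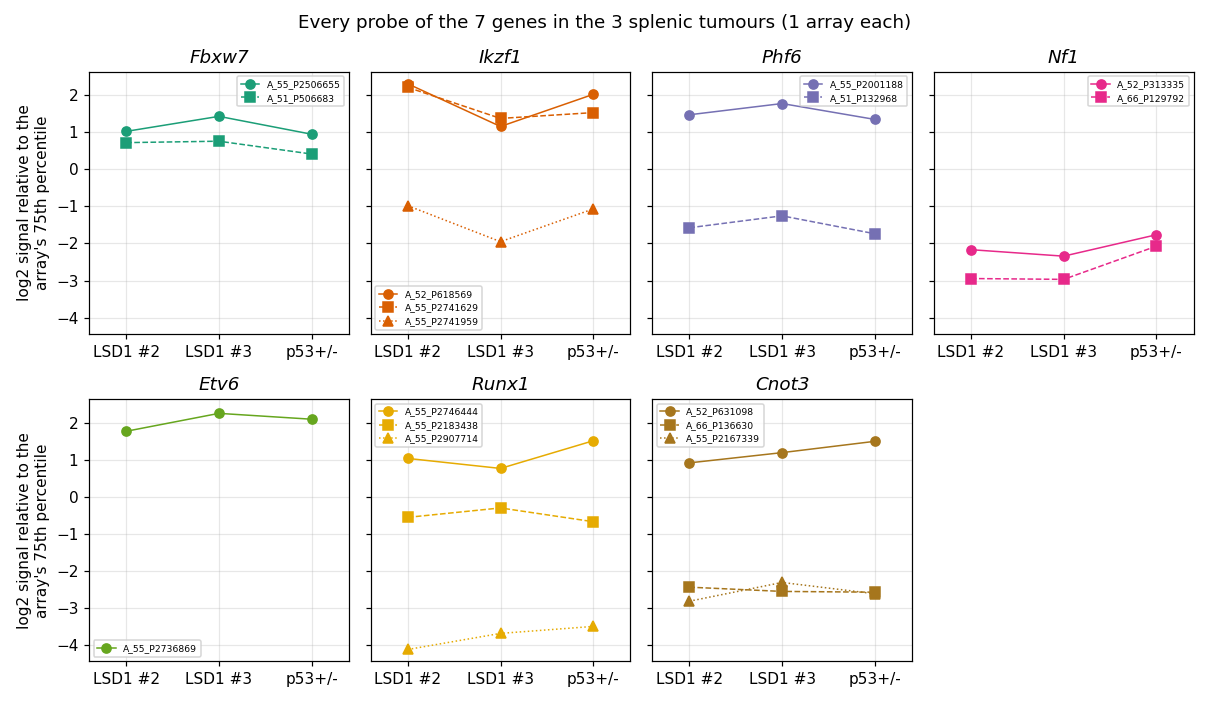
Log2 processed signal relative to the array's 75th percentile (vertical axis) of every probe of each gene in LSD1 × p53+/- tumours 2 and 3 and in the p53+/- tumour (horizontal axis), 1 array each with no error bar. Lines join the values of 1 probe: the 3 Ikzf1 probes dip in LSD1 tumour 3, both Nf1 probes are lower in the LSD1 tumours, and the Runx1 and Cnot3 probes of a gene run in different directions.

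Ikzf1 encodes Ikaros, a zinc finger transcription factor that T and B lymphocyte development requires and whose loss in mice leads to T cell leukaemia. It was the member that differed most between the LSD1 tumours. Its brightest probe (A_52_P618569, NM_001025597) stood at 4.97 in LSD1 tumour 2 and 2.23 in LSD1 tumour 3, against 4.08 in the p53 tumour. The p53 tumour thus lay between them, close to LSD1 tumour 2 and 1.83-fold above LSD1 tumour 3. A second probe of the same transcript (A_55_P2741629) read 4.64 and 2.60, against 2.90 in the p53 tumour. On this probe the p53 tumour lay closer to LSD1 tumour 3, 1.11-fold above it. Probe A_55_P2741959 (NM_001301868) read 0.507 and 0.259, against 0.477. All 3 probes were lowest in LSD1 tumour 3 and highest in LSD1 tumour 2, except that the p53 tumour was above LSD1 tumour 2 on the last in the authors' deposited values (-0.13 log2). LSD1 tumour 2 exceeded LSD1 tumour 3 by 2.22-fold, 1.79-fold and 1.96-fold. For 1 of the 16 member probes, the brightest of Ikzf1, this reached 2-fold, beside 13.3% of all tested probes, and no member probe was 2-fold higher in LSD1 tumour 3 (13.3% of all). At 1.5-fold the 3 Ikzf1 probes were the only member probes higher in LSD1 tumour 2 (background 23.6%), and none was higher in LSD1 tumour 3 (23.6%). The gap between the LSD1 tumours was 0.74 to 1.30 log2 units over the 3 probes and over 4 ways of scaling the arrays. The 2 tumours, with 1 array each, allow no test of it. Against the p53 tumour, all 3 Ikzf1 probes were higher in LSD1 tumour 2 (0.29, 0.68 and 0.09 log2) and lower in LSD1 tumour 3 (-0.87, -0.16 and -0.88). The mean over these opposite differences varied in sign between the probes. In that mean, A_55_P2741629 differed by 0.26 log2 units and A_55_P2741959 by -0.40. Between the genotypes the brightest probe differed by -0.29 log2 units (95% interval -2.50 to 1.92, limma adjusted p = 0.962).

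Like the Ikzf1 probes, all 4 leukocyte markers were lowest in LSD1 tumour 3, but 3 of the 4 were highest in the p53 tumour and 1, Cd52, in LSD1 tumour 2. Their summed signal, most of it from Cd52, was 295 in LSD1 tumour 2 and 168 in LSD1 tumour 3, against 284 in the p53 tumour. Of the 12 T cell markers, 10 were highest in LSD1 tumour 2 and 11 lowest in LSD1 tumour 3. The part of these cells in the Ikzf1 values was not tested. All 10 erythroid markers were highest in LSD1 tumour 3; LSD1 tumour 2 summed to 585 and LSD1 tumour 3 to 1225, against 857 in the p53 tumour. The windows around the Ikzf1 start sites in RefSeq (GRCm38.p6, 250 bases before to 50 after) are shown because this gene carries the widest gap. They lie on the plus strand at chr11:11685675-11685974 and chr11:11689927-11690226. Motifs known to bind proteins of the member families were searched on both strands: TGTGGT and TGCGGT for RUNX, CCGGAAG for ETS and TGGGAA for Ikaros. Neither Ikzf1 window holds any of these letters, so both stand in lower case.
Ikzf1 window 1: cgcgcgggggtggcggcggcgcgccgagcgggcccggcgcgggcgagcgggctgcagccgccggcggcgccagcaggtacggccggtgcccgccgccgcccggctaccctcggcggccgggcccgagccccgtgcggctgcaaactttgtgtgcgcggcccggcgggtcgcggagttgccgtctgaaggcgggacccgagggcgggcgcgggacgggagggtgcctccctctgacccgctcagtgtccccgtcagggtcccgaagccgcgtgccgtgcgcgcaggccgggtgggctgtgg
Ikzf1 window 2: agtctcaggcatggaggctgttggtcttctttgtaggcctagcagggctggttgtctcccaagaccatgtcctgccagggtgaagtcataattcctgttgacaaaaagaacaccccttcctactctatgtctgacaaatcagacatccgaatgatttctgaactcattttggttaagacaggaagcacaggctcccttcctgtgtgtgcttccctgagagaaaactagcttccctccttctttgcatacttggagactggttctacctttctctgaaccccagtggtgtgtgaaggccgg
The first is rich in G and C (81.3%) and the second is not (49%). The arrays do not tell which start site was used.

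The other genes of the Ikaros family did not share 1 direction. Ikzf2, which encodes Helios of regulatory and other T cells, stood at 1.51 in LSD1 tumour 2 and 0.131 in LSD1 tumour 3, against 0.43 in the p53 tumour, the same order as the T cell markers. Ikzf3, which encodes Aiolos of B cells, stood at 1.45 and 3.03, against 3.91, the order of the B cell markers. Ikzf4 (Eos) was 0.28 in LSD1 tumour 2 and not well above background in LSD1 tumour 3, at least 4.01-fold lower there than in the p53 tumour (0.289), while its other 3 probes spread from -1.20 to 1.18 log2 in the mean difference. None of the 4 relatives was 2-fold higher or lower in both LSD1 tumours (background 3.49% and 5.38% of genes), and by any size 38.9% of genes were higher and 27.8% lower in both, the background for the counts by direction that follow. Ikaros works with the NuRD repressor complex, of whose 13 genes 9 were higher in both LSD1 tumours and 2 lower, with medians of 0.42 and 0.53 log2 beside 0.05 and 0.16 over all 15240 tested genes. Proliferation and neutrophil markers were higher in the same tumours, and their part in the NuRD values was not tested. Chd3, a NuRD helicase gene, was 8.14 and 6.396 in LSD1 tumours 2 and 3, against 17.6 in the p53 tumour. Hdac2, a histone deacetylase gene, was at least 2.64-fold and 2.45-fold higher, the p53 tumour not being above background. With normexp background correction Hdac2 was 0.58 and 0.57 log2 higher, below those bounds. Neither Chd3 nor Hdac2 passed limma's test over all genes (adjusted p = 0.967 each).

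Runx1 encodes the DNA-binding subunit of core binding factor, which blood stem cells and T cell precursors need. Its probes disagreed. The brightest (A_55_P2746444, NM_001111023) stood at 2.05 in LSD1 tumour 2 and 1.70 in LSD1 tumour 3, against 2.85 in the p53 tumour. That is 1.39-fold and 1.68-fold lower. The next (A_55_P2183438), which the array assigns to the same transcript, stood at 0.679 and 0.81, against 0.626, which puts the p53 tumour lowest, except that LSD1 tumour 2 lay below it in the authors' deposited values (-0.10 log2). The dimmest (A_55_P2907714, NM_009821) read 0.0774 in LSD1 tumour 3, against 0.0882 in the p53 tumour. It was not well above background in LSD1 tumour 2, 1 of the 2 LSD1 arrays, where it was at least 1.28-fold lower. The mean differences of the first 2 probes, -0.61 (95% interval -2.14 to 0.92) and 0.24 (-1.28 to 1.77), overlap widely (limma adjusted p = 0.892 and 0.953). A direction for Runx1 as a gene cannot be given from these probes.

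RefSeq lists 2 Runx1 start sites on the minus strand, a distal one at chr16:92826025-92826324 and a proximal one at chr16:92697280-92697579. Both are shown because the probes of this gene disagree, although which start site a probe reports on was not tested. Capitals mark matches to the RUNX motif, which the reverse strand of TGTGGT gives here as ACCACA.
Runx1 distal window: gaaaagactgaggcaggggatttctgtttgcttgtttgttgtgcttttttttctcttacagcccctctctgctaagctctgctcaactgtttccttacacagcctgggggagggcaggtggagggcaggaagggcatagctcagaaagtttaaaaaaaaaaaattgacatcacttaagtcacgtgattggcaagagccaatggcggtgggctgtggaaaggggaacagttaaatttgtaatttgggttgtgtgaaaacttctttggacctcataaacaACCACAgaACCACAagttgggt
Runx1 proximal window: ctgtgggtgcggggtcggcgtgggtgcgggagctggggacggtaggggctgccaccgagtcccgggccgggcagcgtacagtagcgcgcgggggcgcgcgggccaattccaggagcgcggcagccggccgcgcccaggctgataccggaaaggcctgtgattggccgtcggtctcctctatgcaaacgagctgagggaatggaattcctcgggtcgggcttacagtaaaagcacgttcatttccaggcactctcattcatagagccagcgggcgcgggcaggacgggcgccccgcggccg
The distal window holds 2 matches, beginning 29 and 37 bases after the start, and the proximal window none. Of 32851 windows of this length in the table, 22.4% hold at least 1 match. Among the other members' windows, the 3 of Fbxw7 hold 1 match in window 1 and 2 in window 3. None of these matches was measured as a bound site here.

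The partners of Runx1 were few. Cbfb, the shared non-DNA-binding subunit, stood at 21.3 in LSD1 tumour 2 and 9.44 in LSD1 tumour 3, against 11.6 in the p53 tumour. Runx3, which acts in cytotoxic T cells and NK cells, stood at 0.801 and 0.612, against 1.43, with its other probe pointing the other way (0.79 log2 in the mean difference). Runx2 was not above background on any array.

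Etv6 encodes an ETS family repressor needed by adult blood stem cells. It has 1 probe (A_55_P2736869, NM_001303102), which read 3.40 in LSD1 tumour 2 and 4.76 in LSD1 tumour 3, against 4.26 in the p53 tumour. The p53 tumour lay between the LSD1 tumours, but above LSD1 tumour 3 too after quantile normalization (-0.12 log2) and in the authors' deposited values (-0.21). The mean difference was -0.08 log2 units (95% interval -1.72 to 1.55, limma adjusted p = 0.987). Of 11 other ETS genes of blood cells, 5 lay below and 2 above the p53 tumour for both LSD1 tumours. In both, 1 of them, the repressor gene Etv3, lay below by 2-fold or more, beside 5.38% of all tested genes. Etv3 stood at 0.637 and 0.551, against 1.36. Spib, an ETS gene of B cells and plasmacytoid dendritic cells, stood at 4.55 in LSD1 tumour 2 and 16.4 in LSD1 tumour 3, against 18.8, in the order of the B cell markers. Their part in the Spib values was not tested.

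Phf6 lies on the X chromosome and encodes a nucleolar and chromatin protein with PHD-like zinc fingers. Both of its probes put the tumours in the same order. The brighter (A_55_P2001188, NM_027642) read 2.78 in LSD1 tumour 2 and 3.43 in LSD1 tumour 3, against 2.55 in the p53 tumour. The dimmer (A_51_P132968) read 0.335 and 0.419, against 0.30. LSD1 tumour 3 was highest and the p53 tumour lowest on each, by 1.35-fold and 1.40-fold in LSD1 tumour 3 and by 1.09-fold and 1.12-fold in LSD1 tumour 2. The mean differences were 0.28 and 0.32 log2 units (limma adjusted p = 0.949 and 0.939). In the authors' deposited values, which are scaled otherwise, LSD1 tumour 2 lay below the p53 tumour on both (-0.09 and -0.05 log2).

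Fbxw7 encodes the substrate receptor of an SCF ubiquitin ligase that marks Notch1, Myc and cyclin E for destruction. The brighter probe (A_55_P2506655, NM_001177773) read 2.04 in LSD1 tumour 2 and 2.70 in LSD1 tumour 3, against 1.93 in the p53 tumour. The other (A_51_P506683, NM_080428) read 1.65 and 1.70, against 1.33. The p53 tumour was lowest on both, with mean differences of 0.28 and 0.33 log2 units (95% intervals -1.31 to 1.87 and -1.15 to 1.81, limma adjusted p = 0.95 and 0.935). The authors' deposited values turned the brighter probe in LSD1 tumour 2 (-0.14 log2) and the other in LSD1 tumour 3 (-0.02 log2).

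The partners and substrates of the ligase varied. Of 9 genes of the SCF core and its partners, 7 were higher in both tumours and 1 lower in both, with medians of 0.47 and 0.84 log2 beside 0.05 and 0.16 over all genes. Skp1, the adaptor that F-box proteins bind, stood at 17.8 and 17.7, against 9.04 in the p53 tumour. Skp2, the F-box protein of S phase that degrades p27, was at least 2-fold higher in both, at 0.763 and 0.897, against 0.287. Among transcripts of 10 proteins that Fbxw7 degrades, 5 were higher in both LSD1 tumours and 3 lower in both, with medians of -0.08 and 0.69 log2. Myc stood at 4.52 and 2.39, against 1.104, and Mycn at 0.0775 and 0.125, against 0.251. Also lower in both, and named after their values were seen, were Notch1 (0.493 and 0.386, against 0.635) and Mcl1 (13.1 and 27.9, against 33.8). Ccne1, which encodes cyclin E1, stood at 7.60 in LSD1 tumour 2 and 24.4 in LSD1 tumour 3, against 7.02. Skp2, Ccne1 and the mitotic kinase gene Aurka (9.98 and 18.4, against 5.46) were all highest in LSD1 tumour 3, as were 7 of the 8 markers of proliferating cells, whose part in these values was not tested. Klf5 and Ccne2, named after their values were seen, were above background on 1 array, that of LSD1 tumour 3, where they were at least 5.51-fold and 2.12-fold higher than in the p53 tumour. limma's adjusted p over all genes was 0.967 to 0.969 for these genes.

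Nf1 encodes neurofibromin, a GTPase activator that switches Ras off. Its difference from the p53 tumour was nearly the same in both LSD1 tumours on the dimmer of its probes (-0.87 and -0.90 log2). On the brighter it was -0.40 and -0.58. Its brighter probe (A_52_P313335, NM_010897) read 0.223 in LSD1 tumour 2 and 0.197 in LSD1 tumour 3, against 0.294 in the p53 tumour. The other (A_66_P129792), which the array assigns to the same transcript, read 0.13 and 0.128, against 0.238. The p53 tumour lay above both LSD1 tumours on each probe, by 1.32-fold and 1.49-fold on the brighter and by 1.83-fold and 1.86-fold on the other. The second is the 1 member probe of 16 lower by 1.5-fold or more in both LSD1 tumours, a fold chosen after the values were seen, which 13.8% of all tested probes reached. The LSD1 values of that probe had an SD of 0.02 log2 units (n = 2), and the mean difference was -0.89 (95% interval -2.36 to 0.59, limma adjusted p = 0.892), and the brighter probe's mean difference was -0.49 (-1.99 to 1.01, adjusted p = 0.903). Both probes kept this direction in both tumours under the 4 other scalings tried. The sizes ran from -0.33 to -0.94 for the brighter probe and from -0.50 to -1.26 for the other. For that other probe the scanner software's error estimate was 15.0% and 15.1% of the signal in LSD1 tumours 2 and 3. The closeness of its 2 LSD1 values is finer than this error.

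The Nf1 start site in RefSeq lies on the plus strand at chr11:79339642-79339941. The window is shown because it holds matches for the motifs of 2 other members' families: an ETS match and an Ikaros match, at -217 and -24 bases from the start, both in capitals, the ETS match as its reverse strand CTTCCGG.
Nf1 window: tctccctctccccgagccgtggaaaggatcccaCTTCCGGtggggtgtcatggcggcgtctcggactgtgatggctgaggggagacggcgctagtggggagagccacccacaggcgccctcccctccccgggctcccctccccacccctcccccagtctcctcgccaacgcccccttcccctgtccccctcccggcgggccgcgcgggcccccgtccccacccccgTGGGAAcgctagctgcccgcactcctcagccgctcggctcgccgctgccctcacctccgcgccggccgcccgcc
The ETS letters occur in 8.86% and the Ikaros letters in 25.6% of the 32851 windows, and Etv6 and Cnot3 each hold 1 Ikaros match as well.

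Genes that act with or on Ras varied. Of the 11 other Ras GTPase activators and their Spred partners 9 were tested, 3 of them lower in both LSD1 tumours and none higher in both. Rasa3, a Ras GTPase activator gene of blood cells and platelets, stood at 9.25 and 12.3, against 26.5 in the p53 tumour. This difference of -1.52 and -1.11 log2 was matched by its other probe (-1.28 in the mean). Rasal3, a Ras GTPase activator gene of T and NK cells, stood at 4.21 in LSD1 tumour 2 and 1.27 in LSD1 tumour 3, against 4.03. Among the Ras genes, Rras2 stood at 2.76 and 1.68, against 6.402. Of 9 tested genes that ERK signalling induces as feedback, 1 was higher and 2 were lower than in the p53 tumour on both LSD1 arrays. None was 2-fold either way in both, a size that 3.49% of all tested genes reached upwards and 5.38% downwards. Ier3, the 1 higher in both, stood at 0.357 and 0.374, against 0.187. Dusp6, the ERK phosphatase gene, stood at 3.49 and 2.33, against 5.60. Spry1, a Sprouty inhibitor gene, stood at 1.14 in LSD1 tumour 2 and 0.284 in LSD1 tumour 3, against 0.366. No gene of these lists passed limma's test over all genes.

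Cnot3 encodes a subunit of the CCR4-NOT complex, which shortens the poly(A) tails of mRNAs. Its probes disagreed as those of Runx1 did. The brightest (A_52_P631098, NM_146176) read 1.88 in LSD1 tumour 2 and 2.28 in LSD1 tumour 3, against 2.82 in the p53 tumour. The next (A_66_P136630) read 0.184 and 0.17, against 0.167. Probe A_55_P2167339 read 0.141 and 0.201, against 0.163. The p53 tumour was therefore highest on the brightest probe, lowest by a narrow margin on the next and between the LSD1 tumours on the last, although the array assigns all 3 to 1 transcript. In the authors' deposited values it was highest on all 3, the next probe differing by -0.08 and -0.34 log2 and the last by -0.42 and -0.06. Their mean differences were -0.44, 0.08 and 0.05 log2 units (limma adjusted p = 0.914, 0.986 and 0.992).

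Of 14 other genes of the deadenylase and its adaptors, 7 exceeded the p53 tumour and 3 lay below it for both LSD1 tumours, with medians of 0.22 and 0.08 log2. Cnot9, a core subunit gene, was the 1 at least 2-fold higher in both, at 0.363 and 0.349, against 0.141 in the p53 tumour. Over all tested genes, 3.49% were higher by that size in both. Btg1, an antiproliferative adaptor gene that lymphoid leukaemias also lose, stood at 32.1 and 19.9, against 44.96, and its other probe gave a mean difference of -1.50 log2.

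**Figure D2:**
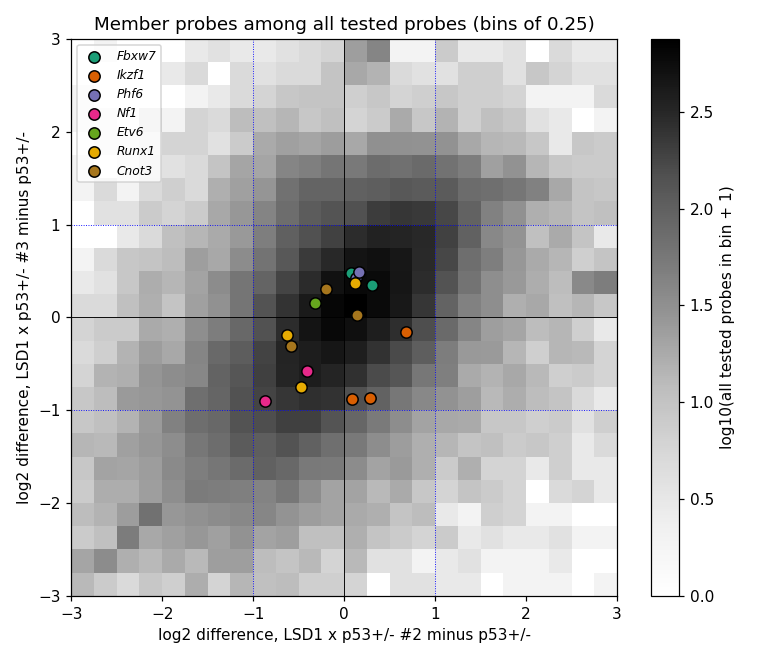
Log2 difference from the p53+/- tumour in LSD1 × p53+/- tumour 2 (horizontal) and tumour 3 (vertical) for the 16 member probes (points coloured by gene), over the number of all tested probes per bin (grey, log10 scale, range limited to 3 log2 units either way). Dotted lines mark 2-fold, and no member probe lies beyond them. The Ikzf1 points sit right of the centre and low, the Nf1 points low on both axes.

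Other tumour suppressors of lymphoid leukaemia included some with differences past 2-fold. Of 30 genes, 11 lay below and 6 above the p53 tumour for both LSD1 tumours, 3 of them below and 1 above by 2-fold or more. Over all tested genes, 5.38% lay below and 3.49% above by that size in both. The 3 were the B lineage transcription factor genes Ebf1 (0.317 and 0.684, against 2.51 in the p53 tumour), Bach2 (0.257 and 0.496, against 1.71) and Pax5 (0.154 and 0.203, against 0.416). B cell markers were lower with them: 10 of 10 were lower in both LSD1 tumours, with medians of -2.66 and -1.14 log2, and Pax5 is itself one of the 10. The part of B cell content in these values was not tested. Ezh2, the methyltransferase gene of Polycomb complex 2, was the 1 gene higher, at 4.998 and 6.52, against 2.34, and its other 4 probes gave mean differences of 0.59 to 1.34 log2. All 8 proliferation markers and all 9 neutrophil markers were higher in both LSD1 tumours too, and their part in the Ezh2 values was not tested. Some genes of the list, named after their values were seen, differed mainly between the LSD1 tumours. In LSD1 tumours 2 and 3, Tcf7 stood at 4.75 and 0.254 (p53 tumour 1.77), Lef1 at 14.4 and 1.36 (6.52) and Bcl11b at 1.66 and 0.194 (1.02). Others, such as Rb1 by its brightest probe (3.33 and 9.41, against 4.46), went the other way. The other Rb1 probe had a mean difference of -0.27 log2 from the p53 tumour, against 0.33 for the brightest. The part of T cell content in these values was not tested.

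**Figure D3:**
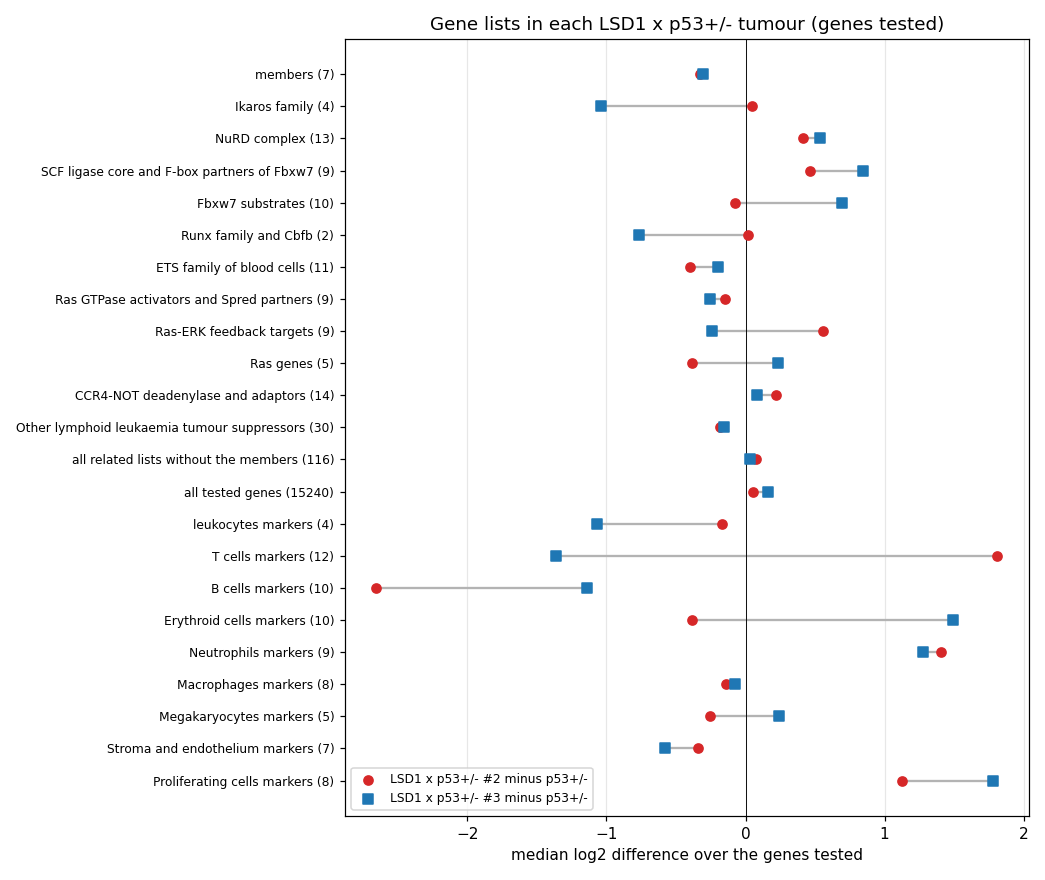
Median log2 difference from the p53+/- tumour over the tested genes of each list (number in brackets) in LSD1 × p53+/- tumour 2 (circles) and tumour 3 (squares). The 7 members, by their brightest probes, have medians of -0.33 and -0.31, where all 16 member probes have 0.08 and -0.07, while T cell and erythroid markers lie on opposite sides of 0 in the 2 tumours.

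Over all related lists, 122 genes other than the members had a probe and 116 were tested. Of these, 5 exceeded the p53 tumour by 2-fold or more for both LSD1 tumours (Hdac2, Skp2, Myc, Cnot9 and Ezh2) and 8 lay as far below it (Chd3, Mycn, Etv3, Rasa3, Rras2, Pax5, Ebf1 and Bach2), beside 3.49% and 5.38% of all tested genes. Skp2, Chd3, Etv3, Rasa3, Rras2, Ebf1 and Bach2 kept the call under all 6 other ways of scaling, centring and filtering. Hdac2, Myc and Cnot9 lost it with normexp and in the authors' deposited values, Ezh2 in the authors' values, Mycn and Pax5 with normexp and quantile normalization, and Myc with quantile normalization too; Hdac2 was not tested where all 3 arrays had to be above background. limma called 0 of the 116, as it called 0 of 15240 genes with 1 probe a gene (568 at an unadjusted p under 0.05, 3.73%). Both LSD1 tumours were set against the same p53 array, so a deviation of that array enters both differences.

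**Figure D4:**
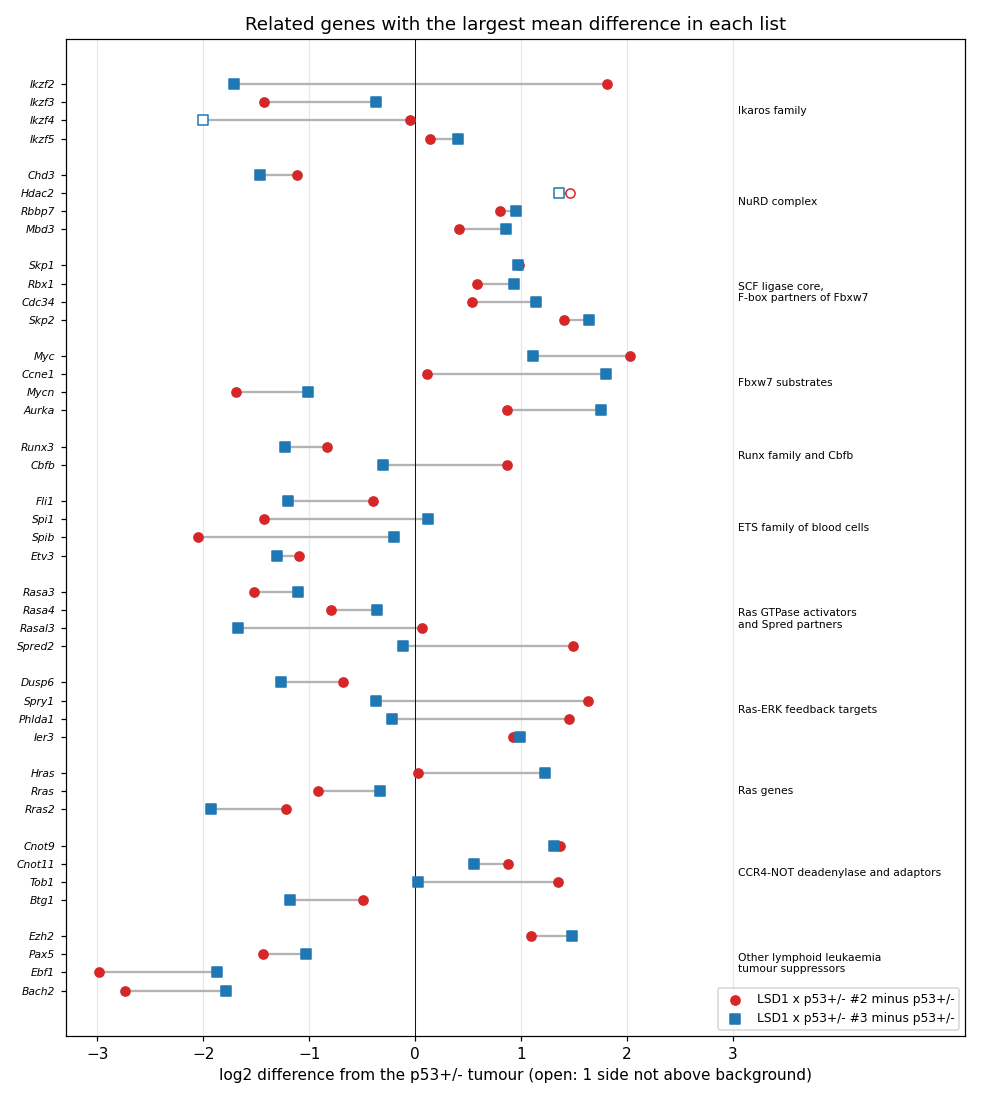
Log2 difference from the p53+/- tumour in LSD1 × p53+/- tumour 2 (circles) and tumour 3 (squares) for up to 4 genes of each related list, those with the largest absolute mean difference among genes whose brighter side (both LSD1 arrays, or the p53 array) was above background, with 1 gene not shown. Open symbols mark a comparison with 1 side not above background. Ebf1 and Bach2 reach furthest to the left, at -2.98 and -2.74 in tumour 2, and of the genes drawn Myc reaches furthest to the right, at 2.03.

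Genes with a profile like a member's were named by the distance between their differences from the p53 tumour in both LSD1 tumours. The search ran over 12808 genes above background on all 3 arrays, with every gene represented by its brightest probe. With 2 differences to match, many genes lie near any member: 149 lay within 0.1 log2 of Fbxw7, 180 of Phf6, 140 of Etv6, 81 of Cnot3, 79 of Nf1 and 56 of Runx1, but 16 of Ikzf1. Nearest to Ikzf1 were Gm1673, Lrrc74b and Gm15446. Nearest to Nf1 were Pcnx, Ppp1r14a and Gbf1, and nearest to Runx1 by its brightest probe were Tmem151b, Pptc7 and Aktip. Mta2, Tmed7 and Gpn2 were nearest to Fbxw7, Senp1, Triap1 and Msl3 to Phf6, and Rassf7 and Myl9 to Etv6. Trp53, which encodes p53, was nearest to the brightest Cnot3 probe (-0.59 and -0.30 log2, against -0.58 and -0.31), followed by 6330418K02Rik and Sp100. The likeness does not extend to the other Cnot3 probes, whose mean differences were 0.08 and 0.05 log2.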

How the data were processed

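The scanner files were made with Agilent Feature Extraction 11.5.1.1, which the submitters' processing notes also name. Their processed signal is, per the file headers, an intensity on a linear scale, already corrected for background and for spatial trend but not scaled between arrays. Its own error estimate was 10.0% to 26.3% of the signal of the member probes. Other columns deposited per spot flag background, saturation and outliers. The authors' value table holds the same intensities times 1 factor per array (0.779, 0.902 and 1.06 for LSD1 tumours 2 and 3 and the p53 tumour, column medians 54.2, 43.5 and 64.2), on a basis not given in the sources used here.

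Signals were divided by the array's 75th percentile over non-control spots (712, 554 and 608) before log2 was taken. Outlier spots (113 to 128 an array) were left out and spots of a probe averaged. The SD between the 10 spots of repeated probes was 0.04 log2 (median) on each array and covers measurement within an array only. Probes were named through RefSeq accessions in a gene table of GRCm38.p6 (25122 of 47837 identifiers, 32989 of 56605 probes); the array's build is mm9, so coordinates are given for the RefSeq windows alone, which the table holds for 6 of the 7 genes. Phf6 is not among them. A related or marker gene was represented by its brightest probe.

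The comparison was fitted with limma 3.58.1 in R 4.3.3 over all probes above background on at least 1 array, with 1 residual degree of freedom (3.34 with the prior) and Benjamini-Hochberg adjustment at 0.05. The single p53 tumour is taken to vary as the LSD1 tumours do, and p-values measure only the spread between these samples. LSD1 tumour 3 and the p53 tumour shared slide 1 and scan 1, whereas slide 2 and scan 2 held LSD1 tumour 2. "At least" folds use the higher of the dim array's lowest level above background and the probe's own. Members, lists and motifs were chosen with earlier results of these data known. Named genes were all members by every probe, up to 4 of each related list by absolute mean difference (brighter side above background, which for a higher gene means both LSD1 arrays), and the 3 genes nearest to each member, of which 2 genes are not reported here. The files hold no mean spot signal, so normexp used the median. The fit was run on simulated data with the same spread for every probe, to check that planted differences were recovered in size. How often a real difference would be called with 1 tumour against 2 is not given by that check.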

Additional observations from a re-analysis of the deposited data

How the results depend on the processing

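No paired analysis was possible because the genotypes share no replicate number. limma called 0 probes under each of the 7 alternatives run. No member probe was 2-fold higher in both LSD1 tumours under any alternative, and none 2-fold lower except the second Nf1 probe, the 1 counted with the authors' value table and at a 1.5-fold threshold. That table shifts the median difference of all probes from 0.02 and 0.07 to -0.19 and -0.29 log2 in LSD1 tumours 2 and 3. Of 32 probe differences (16 probes, 2 tumours), 22 kept their sign over the 5 scalings and centrings. In the mean over both tumours, the authors' table turned Fbxw7 A_55_P2506655 (-0.0094), Ikzf1 A_55_P2741629 (-0.0271), Phf6 A_55_P2001188 (-0.0123), Runx1 A_55_P2183438 (-0.0451) and Cnot3 A_66_P136630 (-0.21) and A_55_P2167339 (-0.24), and normexp turned the last too (-0.0596). With slide as a block, or without LSD1 tumour 2, the values are those of LSD1 tumour 3 alone, with no test: Ikzf1 A_55_P2741629 turned to -0.157 and Etv6 to 0.158. Leaving out either LSD1 tumour gave -0.868 to 0.285 for Ikzf1 A_52_P618569, -0.157 to 0.682 for A_55_P2741629, -0.884 to 0.0876 for A_55_P2741959, -0.326 to 0.158 for Etv6 and -0.202 to 0.305 for Cnot3 A_55_P2167339. Of the related genes, 5 were 2-fold higher in both tumours, 2 with normexp and 1 with the authors' table, and 13 when either tumour stood alone or with slide as a block. The 8 lower became 23 without LSD1 tumour 2 or with slide as a block. Without LSD1 tumour 3 they became 13, fewer conditions having to be met in each case. With the authors' table they became 10, Crebbp and Runx3 being added. Quantile normalization also added Crebbp but gave 7 in total. The cause of the other shifts was not tested. Centring and the 1.5-fold threshold were chosen after seeing the data. The number of arrays limits the precision.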
